A study of Mus musculus with 36 samples.

Results

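Very wide accessible regions were taken from ATAC-seq of mouse CD4 T cells as every consensus peak whose end lay 5000 bp or more beyond its start, which gave 893 of 71509 peaks. They made up 1.25% of the peaks and 8.19% of the length of all peaks together, and spanned 6.57 Mb. Peaks had been called in each library and merged over libraries, so the width of a peak is that of the union over all cell states and genotypes and does not differ between groups. Widths ran from 5000 to 41200 bp, with quartiles of 5440, 6160 and 8000 bp. For comparison, 9749 peaks were 2000 to under 5000 bp wide and 60867 were narrower than 2000 bp.

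In ATAC-seq the Tn5 transposase inserts sequencing adapters where DNA is not shielded by nucleosomes, so the number of reads in a region follows how open it is. Most open regions are short and hold a promoter or an enhancer, whereas long stretches of open chromatin are known to lie over genes that define a cell type, where many enhancers sit close together around an active promoter. HP1α (gene Cbx5) and HP1γ (gene Cbx3) are proteins that bind methylated histone H3 lysine 9 in heterochromatin and help to keep it silent.

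The study asked how HP1 proteins act in conventional CD4 T cells (Tconv) that are held in check by regulatory T cells (Treg). Tconv came from HP1α-deficient (Hp1a-/-) mice and Hp1a+/+ littermates, or from HP1γ-deficient (Hp1g-/-) mice and control littermates, and each line was profiled in 3 states with 3 libraries per genotype and state, 36 in all. The states were naive CD4 cells from the spleen before transfer, donor-specific Tconv sorted from the spleen of grafted hosts, and the same Tconv from hosts that had also received Treg. Hosts were lethally irradiated and grafted with a mix of bone marrow from C57BL/6 J and B6D2F1 mice, donor-specific Tconv were enriched with CD4 beads and sorted as CD4+ Thy1.1- H-2Kb+ H-2Kd- cells bearing the T cell receptor chain Vβ6, a gate that B, myeloid, NK and CD8 T cells should not pass, and Treg had been expanded from Foxp3-Thy1.1 mice.

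Several features limit these groups as models. The Hp1a deletion was made with CMV-cre and passed through the germline, so every cell of an HP1α KO mouse lacked the gene. The Hp1g deletion was made by Cd4-cre on a homozygous floxed allele, the controls were floxed littermates without the transgene, and so only the HP1γ KO mice carried Cd4-cre. Both lines were on a mixed background and littermates were sex-matched. The cells are bulk populations, so fewer open cells and less openness per cell cannot be told apart. Each library held 1.49 to 96.8 M peak reads. The study left out 3 HP1α-line libraries with Treg for poor quality, and these were left out here too, so that HP1α Tconv with Treg rested on 1 KO library of 50.7 M reads and 2 wild-type (WT) libraries of 12.7 and 1.49 M. Neither target gene had a very wide peak: 2 peaks of 1090 and 3420 bp covered Cbx5 starts and differed between HP1α KO and WT by −0.11 to 0.13 on the log2 scale, and the peak over the Cbx3 start was 4340 bp and differed by 0.02 to 0.11 in the HP1γ line. A peak at the start does not measure whether the gene's body was deleted.

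The members were mostly promoters with their surroundings. A protein-coding start site lay inside 579 of the 893 (64.8%), against 59.5% of peaks of 2000 to under 5000 bp and 9.44% of narrower ones. With start sites of any gene type the share was 79.7%. Another 177 members (19.8%) had their centre in an intron, 116 (13.0%) lay between coding genes and 21 (2.35%) had their centre in an exon. The wider the member, the more often it held a coding start: 62.7% of 632 members from 5000 to under 7500 bp, 64.3% of 143 up to 10000 bp and 77.1% of the 118 that were wider still. Up to 3 coding starts shared one member, and 61 members held at least 2.

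**Figure D1:**
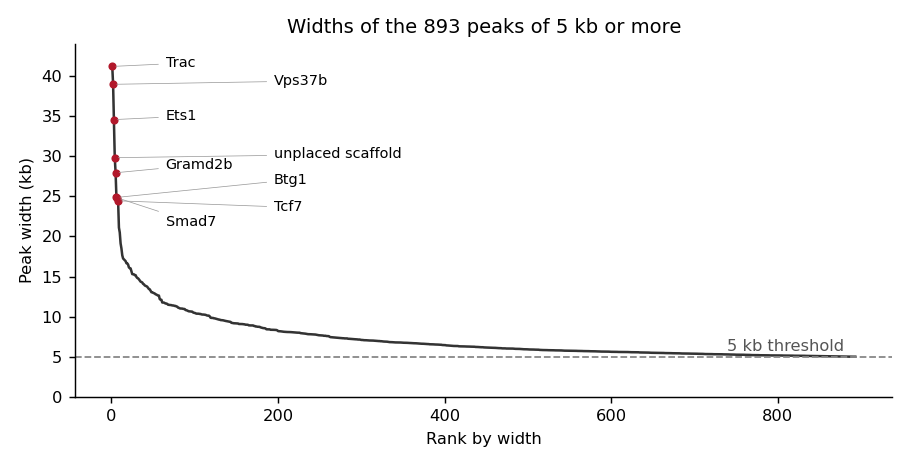
Widths of the 893 peaks of 5000 bp or more, ranked by width on the horizontal axis, with the width in kb on the vertical axis, a dashed line at the threshold and the 8 widest named. Most members were close to the threshold (quartiles 5440, 6160 and 8000 bp), and the widest, over Trac, reached 41200 bp.

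The widest member of all lay over Trac, which encodes the constant region of the T cell receptor α chain (chr14:54425981-54467180, 41200 bp). It was followed by members over Vps37b, an endosomal sorting gene (chr5:124136561-124175530, 38970 bp), an intron of Ets1, a lymphocyte transcription factor (34570 bp), an unplaced scaffold, JH584304.1 (29820 bp), Gramd2b (27940 bp), Btg1, an antiproliferative gene of quiescent T cells (chr10:96450691-96475550, 24860 bp), Smad7, an inhibitor of TGF-β signalling (24810 bp), Tcf7, the T cell transcription factor TCF1 (chr11:52151461-52175900, 24440 bp), Tnfaip3, an inhibitor of NF-κB (21100 bp), and Gpr183, a chemotactic receptor (20490 bp). Of these 10, Trac, Ets1, Btg1, Smad7, Tcf7 and Tnfaip3 are known from T cell identity, quiescence or feedback. At the threshold itself the distribution had no gap: 291 peaks measured 4500 to under 5000 bp and 248 measured 5000 to 5500 bp. The members just inside, 8 of them at exactly 5000 bp, included those over Bzw2 and Ankmy2 (chr12:36203731-36208730) and Pik3r1 (chr13:101829121-101834120). Peaks just outside, at 4990 bp, included one over Avl9 (chr6:56690011-56695000) and one in an intron of Smad3 (chr9:63612881-63617870).

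Very wide peaks were often neighbours. Within 10 kb of 213 members (23.9%) lay another member, and within 50 kb of 365 (40.9%). Of 794 coding genes whose body overlapped a member, 112 (14.1%) overlapped at least 2. Fyn, a kinase of T cell receptor signalling, had 6 that added up to 35750 bp, Lef1, a partner of TCF1, had 5 (42620 bp), and Cblb, a ubiquitin ligase that limits T cell activation, had 5 (35790 bp). Bcl11b, which maintains T cell identity, had 3 (46450 bp) and Ets1 had 2 (45190 bp).

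Per kb the members were as open as peaks of intermediate width. On a log2 CPM scale, in which reads are set against the library's total, their median was 4.04 per kb, against 4.09 at 2000 to under 5000 bp and 2.15 below 2000 bp. What set them apart was length, so that the median member had a mean of 6240 reads per library, against 2670 in the intermediate class and 120 in the narrowest. The median standard deviation (SD) between replicates was 0.13 on the log2 scale, against 0.14 and 0.29, and so was like that of the intermediate class. G and C made up 49.8% of the median member (quartiles 46.2 and 53.1), against 50.7% and 47.6% in the intermediate and narrow classes. CpG dinucleotides numbered 2.07 per 100 bp against 3.04 and 1.24, and were sparser in members of 10 kb or more (1.89) than in those under 7500 bp (2.29).

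The start sites of T cell receptor, lineage factor and immediate early genes often lay in a very wide peak. The base rate was 630 of 12346 coding genes with a peak at the start (5.10%). Among T cell receptor, coreceptor and proximal signalling genes it was 20 of 28 (71.4%), including Trac, Trbc1, Trbc2, Cd3d, Cd3g, Cd4, Cd28, the kinases Lck and Zap70, and the adaptor Lcp2. Of 23 T cell lineage transcription factors with a peak at the start it was 15 (65.2%), among them Tcf7, Lef1, Bcl11b, Gata3, Runx1, Ikzf1, Foxo1 and Satb1. Immediate early and AP-1 genes, which are induced within minutes of stimulation, reached 27 of 34 (79.4%), with Fos, Junb, Egr1, Nr4a1 and Zfp36, and genes of negative feedback reached 9 of 15, with Socs1, Cish and Cblb. Naive state and homing genes followed with 6 of 14 (42.9%), effector and activation genes with 13 of 39 (33.3%), MHC class I genes with 3 of 10 (30.0%: B2m, H2-D1 and H2-K1) and inhibitory receptors with 2 of 12 (16.7%: Ctla4 and Pdcd1).

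Highly transcribed housekeeping genes were near or not far above the base rate, with 3 of 80 ribosomal protein genes (3.75%) and 3 of 41 replication-dependent histone genes (7.32%), which shared 1 member. Hosts of small RNAs and abundant noncoding RNAs reached 3 of 19 (15.8%: Malat1, Neat1 and Snhg9). None of 8 heterochromatin genes with a peak at the start had a very wide one. Of the 4 Treg markers with a peak at the start, Foxp3 alone did, and none of the B cell (2 genes with a peak at the start), myeloid (5), NK and CD8 T cell (3), erythroid (5) or stromal and epithelial (3) markers did. These lists were chosen with results of these data known, and no test of the shares was made.

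Sequence is shown for 7 members on which the results below turn, chosen after their values were seen. Each is 200 bp of the GRCm39 reference. For Cxcr3, Bhlhe40 and Tbx21, whose peaks gained accessibility on activation, the window is the one in the member with most matches outside exons to the AP-1 motif TGANTCA or the RUNX motif TGTGGT, on either strand, and the matches are in capitals.
Cxcr3: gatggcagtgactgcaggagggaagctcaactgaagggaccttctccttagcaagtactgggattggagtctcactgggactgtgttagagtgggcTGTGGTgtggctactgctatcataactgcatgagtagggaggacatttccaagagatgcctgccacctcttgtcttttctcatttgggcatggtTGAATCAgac
Bhlhe40: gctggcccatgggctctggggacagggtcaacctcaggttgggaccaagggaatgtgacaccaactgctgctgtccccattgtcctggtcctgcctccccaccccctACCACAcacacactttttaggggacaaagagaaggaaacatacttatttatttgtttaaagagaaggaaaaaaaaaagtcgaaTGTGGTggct
Tbx21: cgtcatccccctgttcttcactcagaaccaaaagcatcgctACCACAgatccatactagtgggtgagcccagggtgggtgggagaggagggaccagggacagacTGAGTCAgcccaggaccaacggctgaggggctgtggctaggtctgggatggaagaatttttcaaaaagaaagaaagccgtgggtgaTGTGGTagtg
These windows lay at chrX:100777991-100778190, chr6:108648084-108648283 and chr11:97000641-97000840, all on the plus strand. For Ccr7, Irs2 and Sox4, whose peaks lost accessibility, and for Cd4, which differed in HP1γ KO cells, the window ends before the start site and capitals mark CpG dinucleotides.
Ccr7: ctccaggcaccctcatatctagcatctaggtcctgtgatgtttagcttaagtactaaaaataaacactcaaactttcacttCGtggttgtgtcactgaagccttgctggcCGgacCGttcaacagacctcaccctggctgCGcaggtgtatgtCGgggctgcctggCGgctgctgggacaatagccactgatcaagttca
Irs2: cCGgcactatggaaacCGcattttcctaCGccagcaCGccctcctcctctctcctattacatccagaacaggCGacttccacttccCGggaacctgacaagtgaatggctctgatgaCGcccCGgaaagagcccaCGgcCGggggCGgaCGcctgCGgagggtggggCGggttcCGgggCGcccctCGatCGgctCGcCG
Sox4: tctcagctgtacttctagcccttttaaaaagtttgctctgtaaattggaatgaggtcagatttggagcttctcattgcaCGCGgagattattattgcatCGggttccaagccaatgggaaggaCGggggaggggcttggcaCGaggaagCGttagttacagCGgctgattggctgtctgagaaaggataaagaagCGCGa
Cd4: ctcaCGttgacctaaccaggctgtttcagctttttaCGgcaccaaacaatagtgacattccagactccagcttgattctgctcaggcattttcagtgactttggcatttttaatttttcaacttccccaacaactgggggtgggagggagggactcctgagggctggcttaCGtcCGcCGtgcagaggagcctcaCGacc
These lay at chr11:99046222-99046421, chr8:11059500-11059699, chr13:29137697-29137896 and chr6:124865185-124865384, all on the minus strand, and the Ccr7 window lies upstream of 310 bases before its start that were skipped because they hold an annotated exon. The Irs2 window held 20 CpGs, Sox4 9, and Ccr7 and Cd4 6 each. The Tbx21 window held 4, Bhlhe40 1 and Cxcr3 none. Windows before starts and windows picked for motif matches are unlike positions, so their counts are not compared.

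The first comparison asked which very wide regions differ between naive cells and activated Tconv of WT mice. Very wide peaks changed past 2-fold less often than narrow ones, and when they did they mostly opened. In the HP1α line the 5 largest gains lay over Osbpl3, near Gpc1 and Serpina12 and in introns of Supt3 and Itpr1, while in the HP1γ line the largest lay in an intron of Vmp1 (5.90, against 4.28 in the HP1α line), and gains at effector genes included Cxcr3, Tbx21 and Bhlhe40. In both lines the largest losses lay in an intron of Khdrbs3 and near Ankrd50, and other losses included Sox4, Irs2, Ccr7, Foxp1 and introns of Lef1. A region was called when edgeR gave an adjusted p below 0.05 over all peaks and the log2 fold change passed 1 in size. In the HP1α line 97 members were called higher in Tconv (10.9%), where 24.9% of all peaks were, and 27 lower (3.02%), where 17.5% of all peaks were. In the HP1γ line 128 were higher (14.3%), where 24.5% of all peaks were, and 22 lower (2.46%), where 22.0% of all peaks were. In the width class under 2000 bp the shares were 27.5% and 19.2% in the HP1α line and 26.6% and 24.5% in the HP1γ line. The libraries of naive cells and Tconv did not overlap at 96 of the 97 and 26 of the 27 called members in the HP1α line, and at 127 of 128 and 22 of 22 in the HP1γ line. These members were picked for their difference, so the count adds no support to the calls, and it was not made for all peaks.

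Marker peaks of other cell types differed between these states too. Here and below a joint level is taken over the start peaks of a list together, per kb, and is not the levels of its peaks added up. From naive cells to Tconv of WT mice, the joint level at 5 of 9 myeloid genes rose (with no start peak at Lyz2 or Csf1r). It was 3.64 to 5.07 and then 8.35 to 9.66 CPM per kb in the HP1α line, and 4.32 to 4.49 and then 7.62 to 8.70 in the HP1γ line. The joint level at 3 of 6 NK and CD8 T cell genes (none at Cd8a or Klrb1c) was 9.84 or more in naive cells and 4.61 to 9.74 in Tconv of the HP1α line, and 10.3 to 11.1 against 4.60 to 5.70 in the HP1γ line. That at 2 of 9 B cell genes was 3.11 to 3.77 against 4.81 to 6.12, and 3.91 to 4.44 against 4.47 to 7.19. The joint level at 3 of 6 stromal and epithelial genes (Col1a1, Pecam1 and Epcam, with none at Col1a2, Cdh5 or Krt8) was lower in Tconv, at 14.2 to 16.5 against 9.52 to 12.5 and 14.7 to 15.7 against 11.8 to 12.6, without overlap and at levels like those of the T cell list. Their part in the activation calls was not tested.

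At an adjusted p below 0.05 and any fold, 50.4% of members differed in the HP1α line and 68.6% in the HP1γ line, against 61.2% and 69.2% of peaks under 2000 bp. Of those that differed, 27.6% and 24.5% passed a log2 change of 1 among members, against 76.3% and 73.9% among the narrow peaks. At 2000 to under 5000 bp 30.8% and 34.9% did. This share also depends on the reads and replicate spread of each class given above. By direction, 183 members were higher at any fold and 267 lower in the HP1α line, where 30.7% of all peaks were higher and 30.3% lower, and 498 were higher and 115 lower in the HP1γ line, where 35.5% of all peaks were higher and 32.1% lower. These small differences depended on the scaling between libraries. With loess offsets the HP1α line had 413 higher and 98 lower and with library size alone 323 and 155, so that the median change of members moved from −0.16 to 0.20 and 0.08, and the HP1γ line had 390 and 229 with loess offsets. The larger calls shifted less: the 97 higher and 27 lower in the HP1α line became 127 and 14 with loess offsets and 120 and 15 with library size alone. The median log2 change of members was −0.16 in the HP1α line (quartiles −0.39 and 0.21) and 0.26 in the HP1γ line (−0.01 and 0.64), against −0.03 and 0.07 for peaks under 5000 bp. At 2000 to under 5000 bp it was −0.29 and 0.10.

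**Figure D2:**
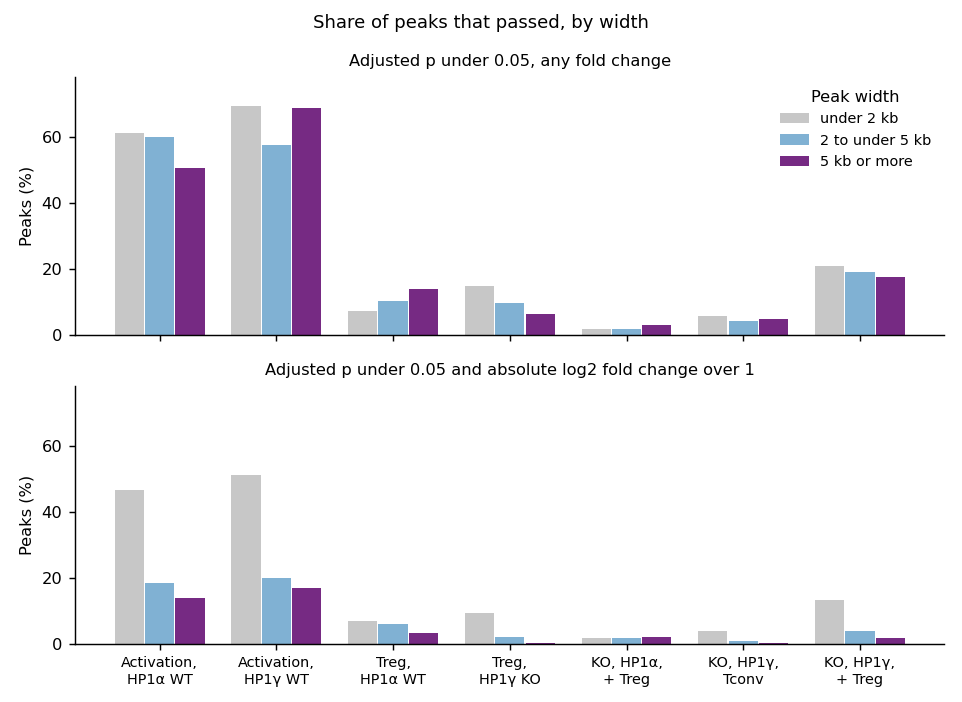
Percent of peaks called in 7 comparisons, by width class (under 2 kb, 2 to under 5 kb, 5 kb or more), at an adjusted p below 0.05 and any fold in the upper panel and with a log2 change past 1 as well in the lower panel. In activation the classes were close in the upper panel (50.4% of members against 61.2% of the narrowest peaks in the HP1α line). In the lower panel the narrowest peaks lay far above both wider classes.

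Members away from coding starts changed more often than those over them. Of 579 members with a coding start, 29 were called higher and 12 lower in the HP1α line (5.01% and 2.07%), and 42 and 10 in the HP1γ line (7.25% and 1.73%). Peaks under 5000 bp with a coding start were called about as often in the higher direction (6.76% and 7.60%) and more often in the lower one (6.76% and 7.55%). Of 314 members without a coding start, 68 were higher and 15 lower in the HP1α line (21.7% and 4.78%), and 86 and 12 in the HP1γ line (27.4% and 3.82%). For peaks under 5000 bp without a coding start these shares were 28.7% and 19.9%, and 27.9% and 25.1%. In both positions the larger gap between wide and narrower peaks was on the side of loss.

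The lines called much the same members. In both lines 93 were called higher and 18 lower, 13 were called in the HP1α line alone, 39 in the HP1γ line alone, and none in opposite directions. The lines have separate naive and Tconv libraries, and the log2 changes correlated at 0.95 over the 893 members, as they did over all other peaks, which is a description over regions that share libraries. Of the 93 higher in both, 27 held a coding start (29.0%), and of the 18 lower in both, 8 did (44.4%). Their median widths were 6360 and 5950 bp and their openness per kb, at 3.27 and 3.31 log2 CPM, was below that of members as a whole.

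**Figure D3:**
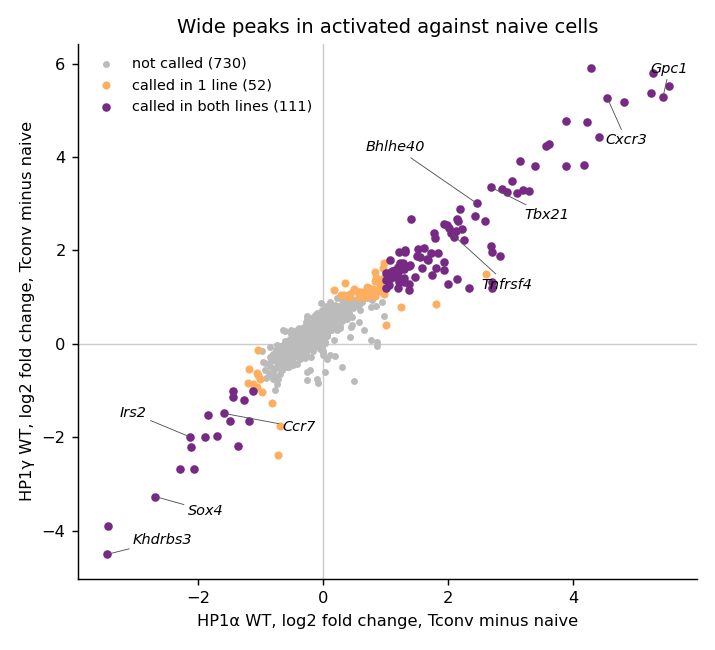
Log2 fold change of activated Tconv over naive cells at each of the 893 members, with the HP1α line on the horizontal axis and the HP1γ line on the vertical axis, coloured by the lines in which a member was called. Members called in both lines (111) lie near the diagonal on both sides of 0, 52 were called in 1 line, and 730 in neither.

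Several called members lay over effector genes. Cxcr3, a chemokine receptor of effector T cells, was covered by a member of 5040 bp (chrX:100777011-100782050). In the HP1α line its log2 CPM were 1.50, 1.01 and 0.98 in naive cells and 5.93, 5.41 and 5.55 in Tconv, and in the HP1γ line 1.02, 0.75 and 0.40 against 5.86, 6.08 and 5.91. Every Tconv library lay far above every naive one, with log2 changes of 4.55 and 5.26 (edgeR, adjusted p = 7.12e-11 and 4.72e-13). Tbx21, the transcription factor T-bet that drives type 1 helper cells and Cxcr3 expression, had a member of 8900 bp (chr11:96998581-97007480). It read 3.76, 4.04 and 4.05 in naive cells and 6.95, 6.40 and 6.63 in Tconv of the HP1α line, and 3.62, 3.69 and 3.59 against 6.50, 7.11 and 7.25 in the HP1γ line. Again the states did not overlap, and the changes were 2.69 and 3.35 (edgeR, adjusted p = 4.95e-10 and 6.11e-11).

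Bhlhe40, a transcription factor of cytokine-producing T cells, was much more open to begin with and its member was far wider (chr6:108634484-108650529, 16046 bp). It read 6.71, 6.18 and 6.22 in naive cells and 9.04, 8.62 and 8.91 in Tconv of the HP1α line, and 6.11, 6.04 and 6.02 against 8.82, 9.17 and 9.17 in the HP1γ line. The changes of 2.46 and 3.01 (edgeR, adjusted p = 4.41e-09 and 5.12e-13) were smaller than at Cxcr3 from a higher level. Cish, a cytokine-induced inhibitor of signalling, changed by 2.02 and 2.49 over 16490 bp (chr9:107170961-107187450). The costimulatory receptors Tnfrsf4 (OX40, chr4:156095811-156101600) and Tnfrsf9 (4-1BB, chr4:151008081-151013080) gained 2.05 and 2.37, and 1.52 and 2.03.

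Other members with the smallest adjusted p in activation lay over other coding starts, in introns or between genes. Over coding starts, Kcnk5, a potassium channel, gained 3.57 and 4.24 (chr14:20227272-20232630), from 2.48 ± 0.22 in naive cells to 6.70 ± 0.04 in Tconv of the HP1γ line (mean ± SD, n = 3). Osbpl3, a lipid-binding protein, gained 5.54 in the HP1α line (chr6:50365711-50372390), and Coro2a, an actin-binding protein, gained 3.91 in the HP1γ line (chr4:46563371-46569100). A member 23566 bp from the start of Gpc1 (chr1:92729651-92735560) rose from 0.61 ± 0.30 to 6.09 ± 0.26 in the HP1α line (n = 3), a change of 5.44 that was 5.29 in the HP1γ line. Members in introns of Supt3 and Itpr1 and one near Serpina12 changed by 5.28, 4.81 and 5.24. One 46731 bp from Bcl2l14 (chr6:134318941-134326550) changed by 4.18 in the HP1α line. In the HP1γ line members near Cd47 and Ube2e3 and in an intron of Rora changed by 4.76, 3.26 and 3.27.

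Losses were called over Ccr7, Sox4 and Irs2, among others. Ccr7, the receptor that brings naive T cells into lymph nodes, had a member of 15170 bp (chr11:99032431-99047600). In the HP1α line it read 8.95, 8.39 and 8.42 in naive cells and 7.09, 7.16 and 6.88 in Tconv, and in the HP1γ line 8.42, 8.36 and 8.43 against 7.08, 6.93 and 6.72. All Tconv libraries lay below all naive ones, with changes of −1.58 and −1.49 (edgeR, adjusted p = 2.22e-07 and 1.75e-10). Sox4, a transcription factor of immature lymphocytes (chr13:29133291-29138380, 5090 bp), read 7.10, 6.77 and 6.72 in naive cells and 3.86, 4.71 and 4.19 in Tconv of the HP1α line. In the HP1γ line it read 6.53, 6.48 and 6.55 against 3.45, 2.99 and 3.27. That was the larger loss, by −2.68 and −3.27 (edgeR, adjusted p = 6.04e-09 and 6.09e-13). Irs2, an adaptor of insulin and interleukin-4 signalling (chr8:11055251-11060680, 5430 bp), went from 7.81 ± 0.23 to 5.68 ± 0.29 in the HP1α line and from 7.53 ± 0.05 to 5.49 ± 0.39 in the HP1γ line (n = 3), with no overlap.

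Larger losses lay in an intron and between genes, and others at T cell transcription factors. The intron of Khdrbs3, an RNA-binding protein, changed by −3.46 and −4.51, from 5.87 ± 0.11 to 1.38 ± 0.25 in the HP1γ line (n = 3), and a member near Ankrd50 by −3.43 and −3.90. Within Lef1, an intron member changed by −2.29 and −2.69 (chr3:130916641-130922370) and another by −2.68 in the HP1γ line (chr3:130962751-130973120), whereas the member over the Lef1 start changed by −0.60 and −0.12 and was not called. At Foxp1, a factor of T cell quiescence (chr6:99237361-99243940), the changes were −1.89 and −1.99. At Bach2, a repressor of effector genes (chr4:32237791-32245850), they were −1.19 and −0.83, and the latter did not pass the fold threshold. A member of Satb1, a chromatin organiser (chr17:52132561-52142250), changed by −1.11 and −1.02.

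The lists were set beside the shares of all 579 members with a coding start given above (5.01% higher and 2.07% lower in the HP1α line, 7.25% and 1.73% in the HP1γ line). Of 14 members over effector and activation starts, 6 were called higher in the HP1α line and 5 in the HP1γ line and none lower, with medians of 0.36 and 0.71. Eomes, a T-box factor, was not called (0.00 and 0.54), nor was Myc (−0.61 and −0.42). The sixth in the HP1α line was Cxcr5, the follicular homing receptor, at 1.01 against 0.41 in the HP1γ line. Of 17 members over lineage factor starts, 3 and 2 were called lower and none higher (medians −0.36 and 0.02). Of 6 naive and homing members, 2 were called lower in the HP1α line (Ccr7 and Klf3, a Krüppel-like transcription factor, at −1.04) and 1 in the HP1γ line, with none higher (medians −0.74 and −0.38). Of 11 negative feedback members, 2 and 3 were higher and 0 and 1 lower, with Rgs1, a brake on chemokine signalling, at 1.30 and 1.42. Both inhibitory receptor members gained in the HP1γ line at any fold, with Pdcd1 (PD-1) at 0.91 and 1.13 and Ctla4 at 0.16 and 0.55, and of these only Pdcd1 in the HP1γ line passed the fold threshold. A second member next to it, in an intron of Pdcd1 (chr1:93972411-93977650), was called higher in both lines, by 2.69 and 2.09 (edgeR, adjusted p = 2.66e-07 and 3.06e-06).

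None of the 19 members over T cell receptor genes was called in either line (medians −0.10 and 0.24), where few members with a coding start were called at all. The Trac member read between 8.58 and 9.56 in every library and changed by −0.18 and 0.43 (edgeR, adjusted p = 0.248 and 0.000183). Zap70 gained 0.49 and 0.84 and Lck 0.18 and 0.81, and Cd2 changed by −0.46 and 0.07. Of 27 immediate early members, only Atf3 was called in the HP1α line (1.01) and Atf3 and Nr4a2 in the HP1γ line (1.37 and 1.05). No MHC class I, ribosomal protein, histone or noncoding host member was called, and Foxp3 changed by −0.74 and −0.02.

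Motif content was described for the 93 members higher and the 18 lower in both lines. AP-1 matches numbered 3.51 per 10 kb in the higher members, 2.66 in the lower and 3.18 in all members, against 3.83 in other peaks and 6.72 in other peaks called higher. RUNX matches numbered 11.6, 8.05 and 8.68 per 10 kb, against 10 in other peaks and 14.2 in those called higher. In windows of 300 bp, AP-1 was found in 9.69% of those in the higher members and in 16.6% of those in other higher peaks, and RUNX in 26% and 31.5%. Matches to the TCF and LEF motif TTCAAAG numbered 2.34 and 2.58 per 10 kb in the higher and lower members and 3.71 in other peaks called lower. CpG numbered 145 per 10 kb in the higher members and 241 in the lower. Both strands were searched, and no motif contains another. A match is a description of letters and not of binding.

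The share of all peak reads that fell in members followed cell state more than genotype. It was 10.2 to 11.5% in naive cells of both lines and 11.4 to 12.7% in Tconv. In WT cells it was 10.6 ± 0.712% in naive cells and 11.9 ± 0.188% in Tconv of the HP1α line, and 10.5 ± 0.0746% and 12.3 ± 0.571% in the HP1γ line (n = 3 each). With Treg it was 10.7 to 10.9% in WT and 11.6% in the single KO library of the HP1α line, and 12.1 ± 0.283% in WT and 11.6 ± 0.385% in KO of the HP1γ line (n = 3 each). Naive and Tconv libraries of WT mice did not overlap in either line. No test was made on these shares.

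**Figure D4:**
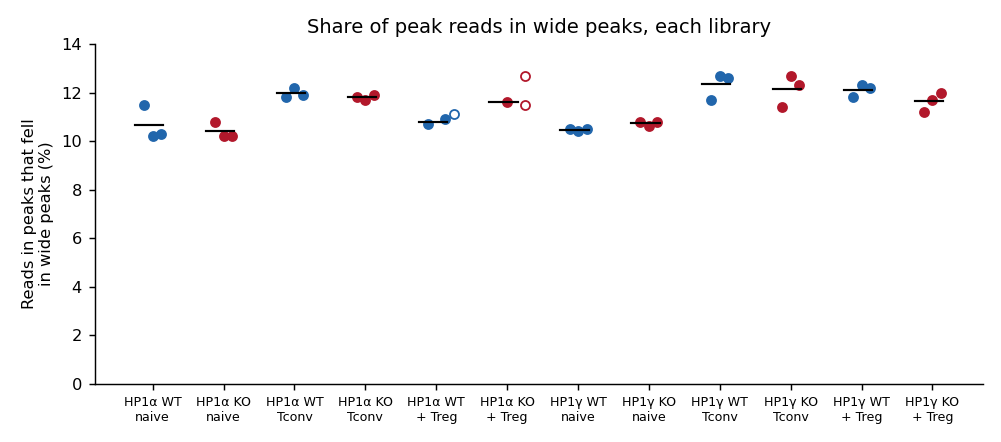
Percent of peak reads that fell in the 893 members, for each library, by line and cell state, with WT in blue, KO in red, the mean of the kept libraries as a black bar and the 3 libraries that the study left out as open circles. Naive libraries (10.2 to 11.5%) lay mostly below Tconv libraries (11.4 to 12.7%).

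The presence of Treg was compared next. In WT Tconv of the HP1α line, 8 members were called higher with Treg (4.92% of all peaks were) and 21 lower (1.84% of all peaks were), so that among members loss outnumbered gain where among all peaks gain outnumbered loss. At 2000 to under 5000 bp loss outnumbered gain too, with 277 higher and 317 lower. The median change was −0.24 over members, −0.08 at 2000 to under 5000 bp and 0.10 over peaks under 5000 bp. With loess offsets the split of members was 13 and 16, and with depth as a covariate 7 and 9. The count rested on single libraries: it was 0 without WT replicate 1 with Treg, 46 without WT Tconv replicate 3 and 16 without WT Tconv replicate 1.

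Among the members higher with Treg in that line were Cxcr5 (chr9:44434751-44440570) and Rgs16, a brake on G protein signalling (chr1:153614821-153623550). Cxcr5 read 5.38, 5.41 and 4.99 without Treg and 6.51 and 6.28 with Treg, a change of 1.14 (edgeR, adjusted p = 0.000720). The library that the study left out read 5.49, and with all 18 libraries the change was 0.90. Rgs16 changed by 1.63 (edgeR, adjusted p = 0.000806), a member near Cwc27 (chr13:104756041-104764600) by 1.77, Dnase1l3, a secreted DNase (chr14:14474221-14480820), by 1.28, and an intron of Cd247, the ζ chain of the T cell receptor, by 1.18. Lower with Treg were Cish, Furin and an intron of Ubxn11. Cish read 8.70, 8.38 and 8.21 without Treg and 7.27 and 7.02 with Treg, which was still above the 6.24 to 6.66 of naive cells. Furin, a protease induced in activated T cells (chr7:80047721-80056620), read 7.88, 7.50 and 7.38 against 6.06 and 6.16. Those changes were −1.25 and −1.53, with Ubxn11 at −1.23, the member over Hcst and Nfkbid at −1.05 and Fli1, an ETS factor, at −1.01. Marker peaks differed between these libraries too: the joint level at Pax5 and Ebf1, the 2 of 9 B cell genes with a start peak, was 4.81 to 6.12 CPM per kb without Treg and 11.6 to 14.2 with Treg, and the myeloid level 8.35 to 9.66 against 10.9 to 11.3. Cxcr5 is itself also expressed in B cells, and the part of these markers in the calls was not tested.

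The other Treg comparisons called few members. In WT Tconv of the HP1γ line none was called, where 0.137% of all peaks were, although 474 members (53.1%) passed an unadjusted p of 0.05 in edgeR, as did 20.3% of all peaks, and 1 was called by DESeq2. The median of members was −0.20 and 9.18% lay above 0, against a median of 0.04 for peaks under 5000 bp. At 2000 to under 5000 bp the median was −0.16 and 16.6% lay above 0. With loess offsets the median of members was −0.03. In HP1α KO Tconv none was called, where 0.548% of all peaks were (21 members, or 2.35%, at an unadjusted p of 0.05 in edgeR, as were 8.54% of all peaks, and none in DESeq2). In HP1γ KO Tconv 3 members were higher with Treg, where 6.10% of all peaks were, and none lower, where 2.06% of all peaks were. These were Cxcr5 (1.03, edgeR adjusted p = 0.000440), a member 85971 bp from Rplp1 (chr9:61730601-61735850, 1.27, adjusted p = 0.000491) and the one near Cwc27 (1.02, adjusted p = 0.00182). Leaving out 1 library gave 1 to 5 calls: 1 without KO Tconv replicate 1, where Cxcr5 stood at 0.85 and Cwc27 at 0.87, and 5 without replicate 2 of either group. Cxcr5 also lost its call without KO replicate 1 with Treg (0.91), and Cwc27 without KO Tconv replicate 3, without KO replicate 3 with Treg, with library size alone and with trended dispersions (0.88 or more). From KO Tconv without to those with Treg the joint myeloid level was 8.36 to 9.41 and then 9.47 to 13.0 CPM per kb, the B cell level 5.58 to 8.18 and then 8.11 to 9.92, and the NK and CD8 T cell level 3.01 to 3.92 and then 1.87 to 2.57, and their part in the calls was not tested. All 3 were also among the 8 called in WT Tconv of the HP1α line.

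The knockouts were compared with littermates in each state. In HP1α KO cells no member was called in naive cells, where 0.00559% of all peaks were (1 at an unadjusted p of 0.05 in edgeR, as were 1.17% of all peaks, none in DESeq2), or in Tconv, where 0.0210% were (20 at an unadjusted p of 0.05, as were 4.82% of all peaks, none in DESeq2). In Tconv with Treg 16 members were higher in KO, where 0.218% of all peaks were, and 1 lower, where 1.42% of all peaks were. The 16 included Rpl3, a ribosomal protein gene (1.26, edgeR adjusted p = 0.0120), Fli1 (1.08, adjusted p = 0.0126), Cbx7, a Polycomb subunit (1.08, adjusted p = 0.0169), Aloxe3 (1.04, adjusted p = 0.0172) and Ms4a6b (1.19, adjusted p = 0.0196). The one lower was Dnase1l3, at −1.95 (adjusted p = 0.00937), with 4.62 in the KO library against 6.73 and 5.76 in WT.

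That comparison set 1 KO library against 2 WT libraries of lower depth, so that the KO library was assumed to vary like those of the other groups, and shares those WT libraries with the Treg comparison above. With all 18 libraries it called 2 members, 1 in each direction, namely Dnase1l3 at −1.39 and Aloxe3 at 1.08 (edgeR, adjusted p = 0.0295 and 0.0329), while Rpl3 fell short (1.03, adjusted p = 0.0950). With depth as a covariate it called 2, with trended dispersions 5, with loess offsets 3 higher and 2 lower, and without WT replicate 1 none. Marker peaks of other cell types also differed between these libraries. The B cell list had start peaks at 2 of 9 genes (Pax5 and Ebf1, with none at Cd79a or Ms4a1), and their joint level was 11.6 to 14.2 CPM per kb in WT with Treg, 5.96 in KO with Treg and 4.81 to 6.12 in WT without Treg. The myeloid list had start peaks at 5 of 9 genes (none at Lyz2 or Csf1r), with joint levels of 10.9 to 11.3, 7.98 and 8.35 to 9.66. With Treg the erythroid level was 4.61 in KO against 6.64 to 9.26 in WT. The stromal and epithelial level was 13.6 against 9.68 to 12.2, and the NK and CD8 T cell level 5.27 against 3.78 to 5.18. The part of depth and of these markers in the calls was not tested.

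In HP1γ KO cells one very wide region stood apart in every state: the member over Cd4, the coreceptor gene itself (chr6:124856622-124866115, 9494 bp). In naive cells it read 9.31, 9.39 and 9.37 in KO and 6.58, 6.54 and 6.64 in WT. In Tconv it read 9.23, 9.36 and 9.46 against 6.81, 6.73 and 6.85, and with Treg 8.90, 9.23 and 9.30 against 6.71, 6.64 and 6.22. Genotypes were separated by more than 2 log2 units in all 3 states, and the changes were 2.77, 2.55 and 2.60 (edgeR, adjusted p = 1.43e-11, 5.76e-11 and 6.93e-11). The kept libraries of the HP1α line read 5.89 to 6.92, like HP1γ WT, and the HP1α KO changes there were −0.01, 0.08 and 0.36. Only the HP1γ KO mice carried the Cd4-cre transgene, which is driven by regulatory DNA of Cd4, so reads from the transgene and a more open Cd4 gene cannot be told apart.

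Apart from Cd4, edgeR called no member in naive HP1γ KO cells (1 higher, where 0.133% of all peaks were, and none lower, where 0.00699% were), with 86 members (9.63%) at an unadjusted p of 0.05, as were 8.98% of all peaks, and 7 higher and none lower called by DESeq2. In Tconv 3 members were higher, where 1.69% of all peaks were, and none lower, where 1.66% were. At any fold 7 were higher (0.784%) and 34 lower (3.81%), where 2.49% and 2.92% of all peaks were. Besides Cd4 they were the member near Bcl2l14 (1.04, edgeR adjusted p = 6.79e-04), which was higher in Tconv than in naive cells in both lines, and Dnase1l3 (1.28, adjusted p = 9.79e-03). Dnase1l3 read 5.95, 6.76 and 6.37 in KO and 4.67, 5.55 and 4.96 in WT, without overlap. The call near Bcl2l14 was lost without KO replicate 2 or 3 or WT replicate 2 or 3 (0.95 to 0.98) and that at Dnase1l3 without WT replicate 1 (1.09), and the count was 5, with 1 lower, without KO replicate 1. The joint NK and CD8 T cell level was 3.01 to 3.92 in KO and 4.60 to 5.70 in WT Tconv, and its part in the calls was not tested.

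With Treg, 6 members were higher in HP1γ KO, where 6.48% of all peaks were, and 9 lower, where 5.38% of all peaks were. Called members were 0.672% and 1.01% of the 893. At any fold 117 were higher and 38 lower, where 11.6% and 8.92% of all peaks were, and this split turned with the scaling, to 57 and 149 with loess offsets and 67 and 104 with library size alone. The median difference was 0.07 over members, 0.10 at 2000 to under 5000 bp and −0.02 over peaks under 5000 bp.

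The members higher in KO with Treg included Cxcr5, which marks follicular helper cells, at 6.82, 6.34 and 6.69 against 5.60, 4.92 and 5.17. Dnase1l3 read 7.81, 6.57 and 7.14 against 5.16, 4.80 and 5.15, and Rgs16 read 6.86, 6.01 and 6.38 against 5.63, 5.25 and 5.39. No KO library overlapped a WT one at any of these, and the changes were 1.35, 2.23 and 1.02 (edgeR, adjusted p = 6.05e-05, 7.50e-05 and 4.05e-03). The call at Rgs16 was lost with library size alone (0.92), with loess offsets (0.95), without KO replicate 1 (0.76) and without WT replicate 2 (0.91). The member near Bcl2l14 changed by 1.39, from 5.47 ± 0.24 to 6.89 ± 0.16, and the one near Rplp1 by 1.51, to 5.53 ± 0.40 (n = 3 each). Both inhibitory receptor members were higher at smaller fold, Ctla4 by 0.90 (6.39 ± 0.09 to 7.30 ± 0.10, edgeR adjusted p = 0.00185) and Pdcd1 by 0.71 (adjusted p = 0.00413), and passed no fold threshold. Among T cell receptor members only Cd4 was called, among lineage factors none.

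Of the 9 members lower in HP1γ KO with Treg, 5 lay on unplaced scaffolds and 3 others at Sfi1, Mid1 and near Alkbh8. On scaffold JH584304.1, 4 members changed by −1.34 to −1.57, and the widest of them (29820 bp) read 8.55, 8.88 and 9.37 in KO and 10.03, 10.09 and 10.71 in WT. A member of GL456396.1 changed by −1.52, but its libraries overlapped. Sfi1, a centrosome gene (chr11:3133811-3150730, 16920 bp), changed by −1.29 (edgeR, adjusted p = 0.0182). A member near Alkbh8 (chr9:3016481-3025990) and one over Mid1 (chrX:168761671-168768560) changed by −1.28 and −1.73, with overlapping libraries. The only remaining member was an intron of St8sia1, a sialyltransferase (chr6:142894971-142903300), at 4.35, 5.06 and 4.76 against 5.72, 6.03 and 6.03, a change of −1.18 (edgeR, adjusted p = 0.000278). With log2 depth as a covariate, 7 of the 9 lost their call, at −0.57 to −0.91. These were Sfi1 (−0.71), Mid1 (−0.86), the member near Alkbh8 (−0.57), that of GL456396.1 (−0.71) and 3 of the 4 on JH584304.1, the widest among them (−0.82). The other on JH584304.1 (−1.06) and St8sia1 (−1.19) were still called.

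Repeated sequence was counted as the share of 31-base words of a member that occur more than once over all peaks, on either strand. Sequence outside peaks was not searched, so a low share does not show that a member is unique. The median share was 1.16% over members, 0.66% in the intermediate class and 0 in the narrowest. It was 7.97 to 40.2% at the 8 scaffold members, 3.43% at Mid1 and 93.1% at the one near Alkbh8. Scaffolds held 8 members among 99 peaks (8.08%). In activation 7 of the 8 gained 1.74 to 2.70 in the HP1α line and 0.86 to 1.96 in the HP1γ line, while the other (JH584304.1, positions 56591 to 62009) changed by 0.03 and 0.01. Without HP1γ KO replicate 1 with Treg, 6 members were higher and 1 lower, and without WT replicate 1 there were 23 calls in all. Marker peaks moved here as well: with Treg the joint B cell level was 8.11 to 9.92 in KO and 5.11 to 7.67 in WT, the myeloid level 9.47 to 13.0 against 8.23 to 8.98, and the level at 3 of 6 NK and CD8 T cell genes (none at Cd8a or Klrb1c) 1.87 to 2.57 against 3.45 to 7.25. Their part in the calls was not tested. For the T cell list, with start peaks at 28 of 28 genes, joint levels were 10.3 to 16.4 over all kept libraries. That list includes the Cd4 member, which was higher in HP1γ KO.

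**Figure D5:**
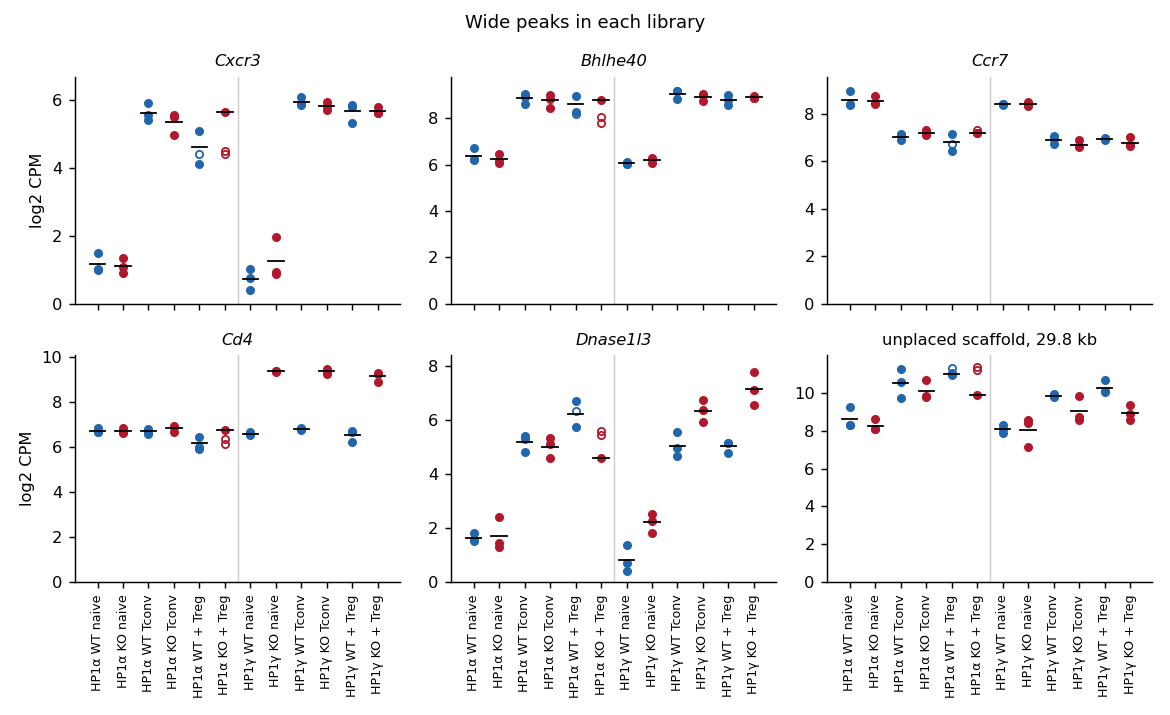
Log2 CPM in each library for 6 members (Cxcr3, Bhlhe40, Ccr7, Cd4, Dnase1l3 and the 29.8 kb member of an unplaced scaffold), by line and cell state, with WT in blue, KO in red, means as black bars and left-out libraries as open circles. Cxcr3 and Bhlhe40 rose and Ccr7 fell from naive cells to Tconv in both lines, and Cd4 was higher in HP1γ KO than in WT in all 3 states (2.77, 2.55 and 2.60).

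A difference between genotypes in the response to Treg was tested with an interaction term. No member was called in the HP1α line, where 0.0461% of all peaks were, with 140 members (15.7%) at an unadjusted p of 0.05 in edgeR, as were 10.3% of all peaks, and 6 called by DESeq2. None was called in the HP1γ line, where 0.00140% of all peaks were, with 150 (16.8%) at an unadjusted p of 0.05, as were 12.8% of all peaks, and 1 called by DESeq2. The calls made with Treg in one genotype and not in the other are therefore not shown to differ between genotypes.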

How the data were processed

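ATAC-seq reads of 36 libraries had been trimmed (Trim Galore 0.6.7), aligned to GRCm39 with BWA, filtered and deduplicated by the authors, who called peaks per sample with HMMRATAC, merged them and deposited a table of raw read counts per consensus peak made with featureCounts 2.0.3. No per-sample column was left unused (0). Of 71512 intervals, 3 of zero width were left out, which gave 71509 peaks. The members and all gene lists were chosen with earlier results of these data known.

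Counts were fitted per line over all peaks passing filterByExpr, with TMM scaling and the quasi-likelihood test of edgeR 4.0.16 in R 4.3.3 (two-sided, no covariate, Benjamini-Hochberg adjustment over all peaks; a call needs an adjusted p below 0.05 and a log2 fold change beyond 1 in size). All 893 members passed the filter in both lines. The authors applied the same thresholds with an older edgeR release. Which of its tests they ran is not given in the sources used here, and its quasi-likelihood fit, with trended dispersions, was run as an alternative. The 3 HP1α-line libraries that the study excluded were left out, so 15 HP1α and 18 HP1γ libraries were fitted, in 14 comparisons. Levels are log2 CPM with a prior count of 2. Genes are from GENCODE vM39. The fit was tested on simulated data with 200 changed peaks. No source used here states whether replicates were separate animals, so p-values measure the spread between these libraries, which may be partly technical. Reads in peaks (1.49 to 96.8 M per library) left no member at 0 reads in the kept libraries, and intervals from replicates cover only that spread.

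Named members were the 10 widest, those beside the threshold, those called with the lowest adjusted p per direction (up to 10 for activation and for HP1γ with Treg, otherwise 5), members over starts of T cell receptor, lineage factor and inhibitory receptor genes, and up to 4 examples of other lists. Genes whose sequence is shown were chosen after their values were seen, as were Tnfrsf9, Rgs1, Klf3 and the other list members and neighbours named beyond those numbers. Replicate numbers were taken to pair samples where every correlation of same-numbered libraries' deviations was over 0.1. This held for HP1α KO in naive cells (0.25 to 0.51), Treg in HP1γ WT (0.20 to 0.29) and HP1γ KO with Treg (0.15 to 0.32). Alternatives were other scalings (median of ratios, library size, loess offsets of span 0.3), no filter, DESeq2 1.42.0, a replicate block, log2 depth as a covariate, all 18 HP1α libraries, each library left out in turn and, chosen after seeing the data, trended dispersions in edgeR and all 36 libraries for the share of reads.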

Additional observations from a re-analysis of the deposited data

Results flagged for a closer look

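At 3 members every HP1α KO library with Treg differed from WT in one direction and every HP1γ KO library with Treg in the other. The HP1α libraries that the study left out were counted in this. The difference between the lines was not tested, and the HP1α fold changes rest on 1 KO and 2 WT libraries. Dnase1l3 changed by −1.95 in HP1α KO and by 2.23 in HP1γ KO. The difference at Rgs16 was −1.01 in HP1α KO, where it was not called, and 1.02 in HP1γ KO, where the call was lost under 4 alternatives (0.76 to 0.95). The intron of Ubxn11 changed by 1.04 in HP1α KO, from 5.18 and 5.18 in WT to 6.26, while in HP1γ KO all libraries (5.74, 6.07 and 5.70) lay below WT (6.50, 6.77 and 6.12). The HP1α KO libraries that the study left out read 5.59 and 5.44 at Dnase1l3, 6.13 and 6.26 at Rgs16 and 5.74 and 6.09 at Ubxn11, and the left-out WT library read 6.36, 6.70 and 5.47. Marker levels of the kept libraries with Treg also went opposite ways. For B cells they were 5.96 in HP1α KO against 11.6 to 14.2, and 8.11 to 9.92 in HP1γ KO against 5.11 to 7.67. The myeloid level went the same ways, the NK and CD8 T cell level the reverse, and their part was not tested.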

How the results depend on the processing

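Of the named members recomputed under every alternative (up to 20 called ones in each comparison, not every gene the text names), none changed sign, but the direction of the many small differences at any fold did turn with scaling, as given beside them, and so did the split of HP1γ KO calls with Treg without 1 KO library. Counts of called members that moved by over 1.5 times were as follows, and the cause was not tested. With depth as a covariate the Treg comparison in HP1α WT gave 16 (main count 29) and HP1γ KO Tconv 5 (3). HP1α KO with Treg (17) gave 10 with median-of-ratios size factors, 5 with loess offsets, 27 with DESeq2, 2 with depth, 2 with all 18 libraries and 5 with trended dispersions. The HP1α interaction (0) gave 2 with library size alone, 2 with loess offsets and 6 with DESeq2, and the HP1γ interaction (0) gave 1 with DESeq2. Treg in HP1γ WT (0) gave 1 with DESeq2 and 1 with trended dispersions, and HP1γ KO naive cells (1) gave 7 and 2. The median of members minus that of other peaks moved with loess offsets from −0.24 to −0.02 for Treg in HP1γ WT, from 0.09 to −0.07 for HP1γ KO with Treg and from 0.20 to −0.05 for the HP1γ interaction, and in HP1α activation from −0.13 to 0.16. The share of members with a start site became 79.7% with any gene type. The median share of reads in members was 11.6% over the kept and over all 36 libraries.

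With the replicate block, the paired comparisons gave 0 for HP1α KO in naive cells and Treg in HP1γ WT, as without it, and 16 in place of 15 for HP1γ KO with Treg, with 15 shared. Where numbers did not pair the samples, the block gave 121 and 149 for activation, 38 for Treg in HP1α WT, 2 for Treg in HP1α KO (0) and 18 for HP1α KO with Treg, and changed no other count.

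Leaving out each library in turn gave 120 to 131 and 138 to 158 calls for activation in the HP1α and HP1γ lines, 0 to 46 for Treg in HP1α WT, 0 to 0 for Treg in HP1α KO and HP1γ WT, 1 to 5 for Treg in HP1γ KO, 0 to 0 for HP1α KO in naive cells and in Tconv, 0 to 8 with Treg, 1 to 1, 2 to 5 and 7 to 23 for HP1γ KO in naive cells, Tconv and Tconv with Treg, and 0 to 0 for both interactions. The single kept HP1α KO library with Treg could not be left out. Where 1 library of a group remained, it was assumed to vary like the others. Of the named members, 2 of 300 results lost their call in HP1α activation and 3 of 280 in the HP1γ line, against 23 of 66 in HP1α KO with Treg and 39 of 210 in HP1γ KO with Treg. In the HP1α comparisons with Treg, one WT library had only 1.49 M reads in peaks.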

Other observations

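Very wide peaks were unevenly spread over chromosomes. On chromosome 11 they were 95 of 5353 peaks (1.77%), on chromosome 16 they were 0.752% and on X 0.854%, against 1.25% overall.

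Members of 1 gene could differ. In the HP1γ line the Cblb member over one annotated start (chr16:51867601-51873740) changed by −1.76 in activation while the one over another start (chr16:51850811-51857690) changed by −0.21, and an intron member of Dusp10, a MAP kinase phosphatase, by −2.37 while the start member changed by −0.23. In the HP1α line the same Cblb members changed by −0.69 and −0.79, so their difference was seen in 1 line, and the Dusp10 start member changed by −0.69. These genes were picked after their values were seen.

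The 3 libraries that the study left out had 11.1 to 12.7% of their peak reads in members, within the 10.2 to 12.7% of the kept ones.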
